A study of Mus musculus with 61 samples.

Results

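The expression of 9 genes of glucose production, glucose use and insulin signaling was followed in primary mouse hepatocytes with and without gp130 after stimulation with IL-6. The genes were Pck1, G6pc, Fbp1, Pcx, Ppargc1a, Tat, Pklr, Irs1 and Irs2. They were chosen by name, and every probe annotated to one of these symbols alone was taken from the signal table of Illumina Mouse WG-6 v2 arrays. There were 14 such probes, and 8 of them, from 7 genes, were detected (detection p under 0.05) on at least 5 arrays. These 7 genes were among the 12157 that passed the same filter out of 19057 named genes on the array. 1 further probe, annotated to Fbp1 together with another gene, was not used here.

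Cytokines of the IL-6 family signal through gp130, a receptor subunit encoded by Il6st. In gp130- mice the floxed gp130 gene is removed in hepatocytes by Cre recombinase under the albumin promoter, and gp130flox littermates, which carry the floxed gene without Cre, served as controls. All mice were on a C57BL/6 background. Hepatocytes were plated in medium with serum and high glucose, starved overnight and given 200 ng/mL IL-6 without serum, and were collected at 0, 1, 3, 6 and 12 h. Since every later array received IL-6, changes relative to 0 h cannot be told apart from effects of time in culture. Ages and sexes are not given in the sources used here.

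The 28 gp130- arrays were 6, 6, 5, 5 and 6 at the successive times, and the 33 gp130flox arrays were 7, 6, 6, 7 and 7. Column headings of the signal table number the arrays within each genotype, and a preparation here means all arrays that share a genotype and a number, which gives 6 gp130- and 7 gp130flox preparations. The labels do not say that the numbers stand for separate mice, so p-values measure the spread between these arrays, whose limited number sets the precision. Numbers 6-11 (36 arrays, 13 gp130- and 23 gp130flox) and numbers 1-4 (25 arrays, 15 gp130- and 10 gp130flox) stand apart in most of what follows. Of 13 hepatocyte marker genes on the array, 12 were detected on most arrays of numbers 6-11 in both genotypes, and 10 (gp130-) and 8 (gp130flox) in numbers 1-4. Cyp2e1 averaged 13.67 in gp130- and 13.01 in gp130flox on the log2 scale in numbers 6-11, against 4.92 and 4.44 in numbers 1-4. Alb, a defining marker, averaged 6.50 in gp130- and 5.51 in gp130flox in numbers 6-11, and in numbers 1-4 it was detected on 1 of 15 gp130- and 0 of 10 gp130flox arrays. Of the detected hepatocyte markers, Apob and Hnf4a were higher in numbers 1-4 and the others lower. Apob averaged 8.78 in gp130- and 8.66 in gp130flox in numbers 6-11, against 10.08 and 10.51 in numbers 1-4. Hnf4a averaged 8.14 and 7.85, against 9.04 and 8.50. Fabp1 was not detected in either set. Anln, a gene of cell division, averaged 4.33 in gp130- and 4.58 in gp130flox in numbers 6-11, against 9.80 and 10.04 in numbers 1-4. Krt19, a cholangiocyte marker, averaged 4.25 and 4.42 in numbers 6-11, against 8.82 and 8.10 in numbers 1-4. Of 5 cholangiocyte markers on the array, 1 was detected on most arrays of numbers 6-11 and 3 in numbers 1-4, in both genotypes. The stellate and fibroblast markers Acta2 (6.35 and 6.83, against 9.75 and 9.34) and Vim (10.13 and 10.65, against 12.99 and 12.72) were higher there. Lrat and Pdgfrb were not detected, and Des was higher there in gp130- only. Cell content was not tested. Because these sets had been recognised from gene levels of the same arrays, differences between them are given with no test, and each comparison of genotypes is given over all arrays and within each set. Il6st was lower in gp130- over the 5 times, by a log2 difference of -0.96 ± 0.24 (SE, limma adjusted p = 0.0138).

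Hepatocytes make glucose from lactate, glycerol and amino acids between meals, and the genes of this pathway are switched on by glucagon and glucocorticoids and off by insulin. Pyruvate carboxylase (Pcx) and phosphoenolpyruvate carboxykinase (Pck1) open the pathway, fructose bisphosphatase (Fbp1) reverses a committed step of glycolysis, and glucose-6-phosphatase (G6pc) releases free glucose. Insulin acts through the receptor substrates Irs1 and Irs2, and Ppargc1a encodes PGC-1α, a coactivator of gluconeogenic genes, whereas Pklr encodes the liver pyruvate kinase of glycolysis and Tat a glucocorticoid-induced aminotransferase.

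Promoters of 3 members are shown because the best known hormone response elements of this pathway lie there and because G6pc and Ppargc1a had the largest genotype differences of the tested members within a set of numbers, while Pck1 stayed near background. Each sequence is the 250 bases before the RefSeq start on the gene's strand, in build GRCm38.p6, with matches to the motifs named after it in capitals. G6pc lies at chr11:101367466-101367715 (+ strand), Pck1 at chr2:173152823-173153072 (+ strand) and Ppargc1a at chr5:51567726-51567975 (- strand).
G6pc: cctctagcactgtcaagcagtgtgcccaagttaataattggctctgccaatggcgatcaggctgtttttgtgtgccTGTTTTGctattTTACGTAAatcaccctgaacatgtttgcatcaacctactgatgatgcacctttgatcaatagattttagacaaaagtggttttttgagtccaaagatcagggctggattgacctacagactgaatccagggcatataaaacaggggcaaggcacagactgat
Pck1: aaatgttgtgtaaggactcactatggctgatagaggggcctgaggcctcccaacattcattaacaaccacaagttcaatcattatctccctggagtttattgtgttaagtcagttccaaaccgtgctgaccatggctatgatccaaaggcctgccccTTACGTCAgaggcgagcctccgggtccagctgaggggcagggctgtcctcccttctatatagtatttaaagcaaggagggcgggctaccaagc
Ppargc1a: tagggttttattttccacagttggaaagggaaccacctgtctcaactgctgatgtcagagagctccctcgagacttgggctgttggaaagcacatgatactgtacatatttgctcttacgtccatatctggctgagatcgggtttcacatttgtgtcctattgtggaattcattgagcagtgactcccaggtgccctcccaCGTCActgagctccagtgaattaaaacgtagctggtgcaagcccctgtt

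The capitals in G6pc mark TGTTTTG, the core of an insulin response element, at -174 to -168 from the start, and TTACGTAA, which resembles a cAMP response element, at -162 to -155. In Pck1 they mark TTACGTCA at -93 to -86, and in Ppargc1a CGTCA at -49 to -45, which reads TGACG on the other strand. Motifs were searched on both strands of the 11 RefSeq windows of the 9 members, each running from 250 bases before to 50 after a start, and of all 32851 windows in the table. TGTTTTG was present in windows of G6pc, Irs1 and Irs2 and in 6.28% of all windows. TTACGTNA was present in those of G6pc and Pck1 and in 0.898% of all, and both of these motifs were chosen after the members' promoters had been read. TGACG was present in Irs1, Pck1 and Ppargc1a and in 20.8% of all windows, and in Pck1 it overlaps TTACGTNA. CACGTG was present in Irs1, Irs2 and Pcx and in 7.15% of all. The STAT site TTCNNNGAA (8.3% of all windows), the full cAMP response element TGACGTCA (1.79%) and the forkhead motif TGTTTAC (3.65%) were in none of the members' windows.

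Pck1 and Tat were near background in these cultures. The brighter of the Pck1 probes was detected on 1 of 61 arrays and its log2 signal lay between 4.16 and 4.65 in gp130- and between 4.18 and 4.76 in gp130flox, while the lowest signal of any detected probe lay between 4.47 and 4.83 on the different arrays. The other Pck1 probe and the Tat probe were detected on 0 of 61 arrays, so neither gene has a comparison. Among the members that passed the filter, Fbp1, Pcx and both Pklr probes were detected on 61 of 61 arrays, Irs2 on 60 and Irs1 on 57. G6pc was detected on 36 arrays and Ppargc1a on 25.

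G6pc was detected in numbers 6-11, on 13 of 13 gp130- and 22 of 23 gp130flox arrays, and hardly at all in numbers 1-4, on 1 of 15 gp130- and 0 of 10 gp130flox arrays. At 0 h its log2 signal in numbers 6-11 was 6.64, 6.59 and 7.27 in gp130- preparations 6, 7 and 9, against 6.05, 5.96, 6.04, 6.08 and 5.81 in gp130flox preparations 7 to 11. At 1 h it was 7.72, 8.01 and 8.52 in gp130-, against 5.87, 6.13, 5.62 and 5.54 in gp130flox preparations 7, 8, 9 and 11. Every gp130- array was thus above every gp130flox array before IL-6, and the gap was wider 1 h after it. At 3 h the values were 7.50 and 8.50 in gp130- preparations 6 and 9, against 5.29, 5.63, 5.49 and 4.87 in gp130flox preparations 7 to 10. At 6 h they were 7.69 and 7.87 in gp130- preparations 6 and 7, against 6.11, 5.73, 5.74, 4.39 and 5.49 in gp130flox, where the 4.39 of preparation 10 was the only gp130flox value below detection. By 12 h they were 6.80, 6.73 and 7.62 in gp130-, against 5.59, 6.55, 5.69, 5.79 and 5.89 in gp130flox. The genotypes did not overlap at any of the 5 times, and the gp130- arrays at 0 and 12 h were the closest to the controls.

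**Figure D1:**
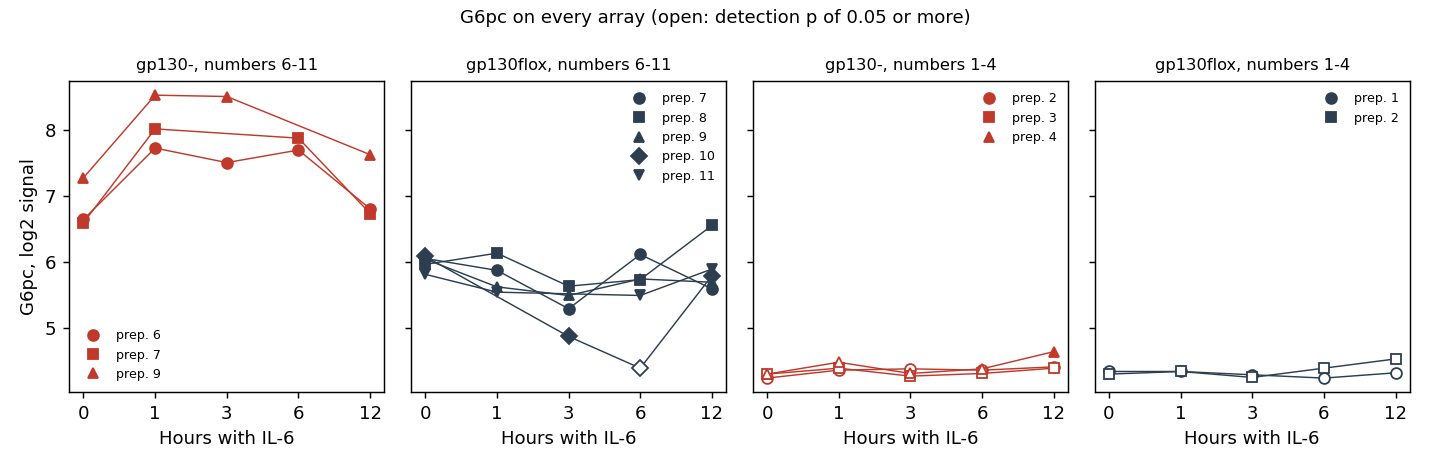
G6pc log2 signal (y axis) against hours with IL-6 (x axis, 0 to 12 h) on each array, in 4 panels for gp130- and gp130flox in numbers 6-11 and in numbers 1-4; a line joins the arrays of 1 preparation and open symbols are arrays where the probe was not detected. In numbers 6-11 the gp130- arrays lie between 6.59 and 8.52 and the gp130flox arrays between 4.39 and 6.55, and in numbers 1-4 nearly all symbols are open in both genotypes.

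Within numbers 6-11, G6pc was higher in gp130- than in gp130flox by 2.29 ± 0.30 on the log2 scale at 1 h (SE, limma adjusted p = 2.67e-06), 2.68 ± 0.34 at 3 h (1.89e-06), 2.29 ± 0.33 at 6 h (8.48e-06) and 1.15 ± 0.29 at 12 h (0.00706). The difference at 0 h, 0.84 ± 0.29, did not pass the adjusted threshold (0.105). These single-time fits had no block and took the spread from arrays of all times, whose deviations correlate within preparations. Their p-values therefore do not measure the spread between preparations, and gp130- had 2 arrays at 3 h and 2 at 6 h. A comparison was called where the adjusted p over all 12157 genes was under 0.05 and the fold over 1.5. Of the 35 pairs of a member and a time, 5 were called in numbers 6-11, 4 of them G6pc, against 6.78% of all pairs of a gene and a time in the same fit. The mean of the 5 times was higher in gp130- by 1.87 ± 0.16 (limma adjusted p = 5.97e-11), and G6pc was the only 1 of 7 members called there, against 7.65% of all genes. That fit used a correlation within preparations shared by all genes, so its SE and p do not measure the spread of G6pc between preparations by itself. Leaving out any 1 of the 8 preparations kept the calls at 1, 3, 6 and 12 h and over all times. Over preparations, G6pc averaged 7.52 ± 0.40 in gp130- (SD, n = 3) and 5.69 ± 0.26 in gp130flox (SD, n = 5), with a two-sided exact permutation p of 0.0179, the smallest that 56 arrangements allow.

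Hepatocyte markers moved in the same direction in these arrays. Over the 5 times, 7 of 12 hepatocyte markers tested were higher in gp130- within numbers 6-11 and 0 lower. Of all 12157 genes, 491 were higher and 439 lower in the same fit (7.65%). The median log2 difference of the hepatocyte markers was 0.69. The log2 of their summed signals, in which the brightest markers weigh most, ran between 15.96 and 16.30 in gp130- and between 15.47 and 16.05 in gp130flox. Of 7 markers of Kupffer cells and other leukocytes, 0 were higher and 1, Cd14, was lower in gp130-, with a median difference of -0.23. The log2 of their summed signals lay between 11.87 and 12.33 in gp130- and between 12.44 and 13.09 in gp130flox. Cd14 was the brightest of them (mean 11.37 in gp130- and 12.24 in gp130flox) and weighs most in that sum. Adgre1 averaged 7.84 in gp130- and 8.09 in gp130flox, Clec4f 7.59 and 7.88, and Marco 7.61 and 7.47, and none of these was called. The part of these shifts in the G6pc difference was not tested. In bulk RNA of this kind, fewer cells of a type and less RNA per cell cannot be told apart.

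G6pc also changed differently over time in the 2 genotypes of numbers 6-11. Averaged over the available arrays at 1, 3 and 6 h, the change from 0 h was 1.00, 1.35 and 1.24 in gp130- preparations 6, 7 and 9. In gp130flox preparations 7 to 11 it was -0.29, -0.13, -0.42, -1.45 and -0.30. All 3 gp130- preparations thus lay above their own 0 h value and all 5 gp130flox preparations below it, and the means were 1.20 ± 0.18 in gp130- and -0.52 ± 0.53 in gp130flox (SD, two-sided exact permutation p = 0.0179, the smallest possible). Preparations 7 and 9 of gp130- and 10 and 11 of gp130flox each lacked 1 of these times. With the preparation as a block, the change in gp130- exceeded that in gp130flox by 1.55 ± 0.30 at 1 h (limma adjusted p = 0.0372), 1.76 ± 0.32 at 3 h (0.0141) and 1.70 ± 0.32 at 6 h (0.0133). At 12 h the difference of changes was 0.31 ± 0.29 (0.824). These were 3 of 28 pairs of a member and a time after 0 h, against 0.173% of all such pairs, and the fit was chosen after seeing the data. The call was lost at 1, 3 and 6 h when some single preparations were left out (6, 3 and 2 of 8), and without the block the adjusted p values were between 0.173 and 0.767.

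When all 61 arrays were fitted together, the difference was much smaller beside its error. G6pc was then higher in gp130- by 0.04 ± 0.72, 0.94 ± 0.74, 0.82 ± 0.78, 0.57 ± 0.75 and 0.28 ± 0.72 at 0, 1, 3, 6 and 12 h, and by 0.64 ± 0.39 over all times (limma adjusted p = 0.690). In that fit 0 of 35 member and time pairs were called, against 0.744% of all pairs, and 0 passed the fold at an unadjusted p under 0.05. Over all times 0 of 7 members were called, against 1.62% of all genes, and 1 passed the fold at an unadjusted p under 0.05. The share of all genes at that unadjusted level was not counted. With the set of numbers as a term, G6pc was called at 1, 3 and 6 h (1.31, 1.43 and 1.28, adjusted p = 0.0156, 0.00700 and 0.0120), and these with Fbp1 at 6 h made 4 of 35 pairs, against 3.29% of all. Over all times in the same fit, G6pc was the 1 member of 7 called (1.12 ± 0.19, adjusted p = 1.47e-05), against 4.4% of all genes. In numbers 1-4, G6pc averaged 4.37 in gp130- and 4.33 in gp130flox, below background in both, so no fold is given there.

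Ppargc1a showed the opposite distribution over the sets. Only 1 Ppargc1a probe can show this, since the other was detected on 0 of 61 arrays, those of numbers 1-4 included. The probe used was detected on 15 of 15 gp130- and 8 of 10 gp130flox arrays of numbers 1-4, and on 0 of 13 gp130- and 2 of 23 gp130flox arrays of numbers 6-11. Its log2 signal in numbers 1-4 at 0, 1, 3, 6 and 12 h was 6.86, 6.79, 6.42, 6.52 and 6.62 in gp130- preparation 2. It was 5.97, 6.08, 5.65, 5.26 and 5.73 in preparation 3 and 5.95, 5.86, 5.25, 5.51 and 5.60 in preparation 4. The gp130flox values were lower at the same times, at 5.04, 5.07, 4.43, 4.93 and 4.36 in preparation 1 and 5.34, 5.45, 4.91, 4.98 and 4.85 in preparation 2. The 4.43 and 4.36 of gp130flox preparation 1 at 3 and 12 h were not above background. No gp130flox array reached the gp130- arrays of its own time, and gp130- preparation 2 stood above the other two throughout.

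**Figure D2:**
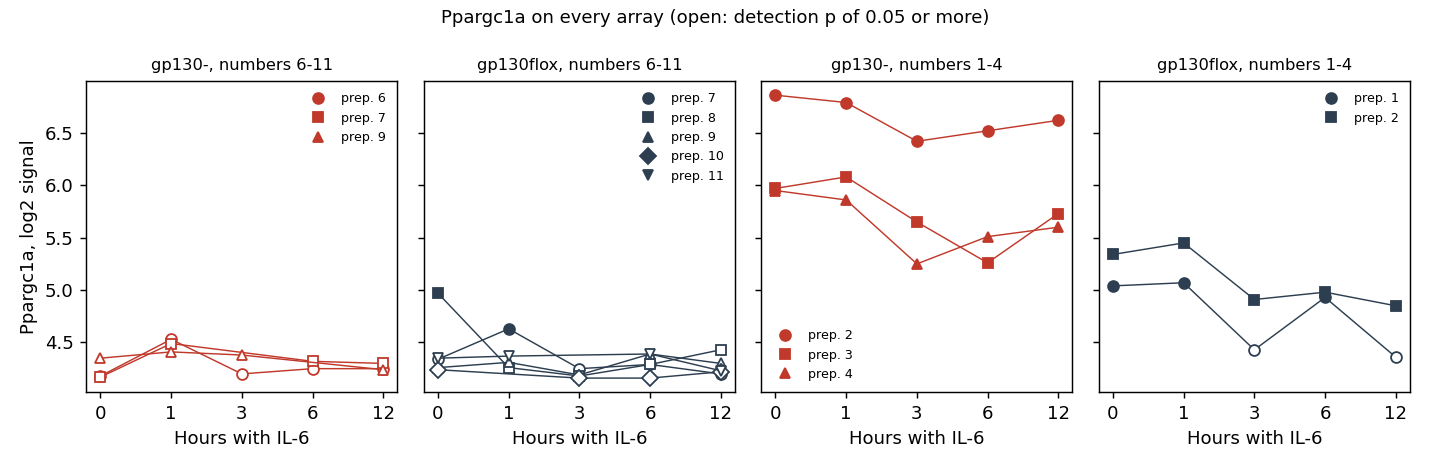
Ppargc1a log2 signal (y axis) against hours with IL-6 (x axis, 0 to 12 h) on each array, in 4 panels for gp130- and gp130flox in numbers 6-11 and in numbers 1-4; a line joins the arrays of 1 preparation and open symbols are arrays where the probe was not detected. In numbers 1-4 the gp130- arrays lie between 5.25 and 6.86 and the gp130flox arrays between 4.36 and 5.45, and in numbers 6-11 nearly all symbols are open.

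Within numbers 1-4, Ppargc1a was higher in gp130- by 1.07 ± 0.22 over the 5 times (SE, limma adjusted p = 0.0111), 1 of 7 members called against 1.72% of all genes. The call was lost without gp130- preparation 2 (0.75, adjusted p = 0.0781) or without gp130flox preparation 1 (0.90, adjusted p = 0.421). Preparation means were 6.64, 5.74 and 5.63 in gp130-, against 4.77 and 5.11 in gp130flox, and an exact permutation over 3 and 2 preparations cannot go below p = 0.1, which is the value found. At single times 0 of 35 member pairs were called in numbers 1-4, against 0.796% of all pairs, and 7 passed the fold at an unadjusted p under 0.05. The share of all pairs at that unadjusted level was not counted, so the 7 cannot be read as an excess. With the preparation as a block, Ppargc1a was called at 3 h (1.10, adjusted p = 0.0400) and 12 h (1.38, adjusted p = 0.0177), 2 of 35 pairs against 0.949% of all, and at both of these times 1 of 2 gp130flox arrays was above background. Xist, a transcript of female cells, was at 8.86 and 8.26 in gp130- preparations 2 and 3 and between 4.17 and 4.25 in the other 11 preparations, and its part in the Ppargc1a difference was not tested. Hepatocyte markers averaged 7.28 in gp130- and 6.76 in gp130flox within numbers 1-4, with 1 of 12 called higher in gp130-, against 1.72% of all genes called. Over all 61 arrays the Ppargc1a difference was 0.66 ± 0.22 (adjusted p = 0.131).

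Ppargc1a was lower 3 h after IL-6 than at 0 h in each of the 5 preparations of numbers 1-4. The change was -0.45, -0.32 and -0.71 in gp130- preparations 2, 3 and 4, and -0.60 and -0.43 in gp130flox preparations 1 and 2. In the fit of numbers 1-4 with the block, the gp130- change was -0.49 ± 0.11 (adjusted p = 0.332) and the gp130flox change -0.51 ± 0.14 (adjusted p = 0.0390), both smaller than 1.5-fold, and their difference was 0.02 ± 0.18 (adjusted p = 0.958). The gp130flox change includes the array of preparation 1 at 3 h, which stood apart from its set and was not above background for Ppargc1a, so that the -0.60, the -0.51 and the difference of 0.02 are not exact; preparation 2 by itself had -0.43.

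Fbp1 had a narrow spread within each set and was slightly higher in gp130- in both. In numbers 6-11 the lowest, median and highest values were 9.51, 9.99 and 10.60 in gp130- (n = 13), against 8.997, 9.58 and 10.09 in gp130flox (n = 23). In numbers 1-4 they were 6.18, 6.48 and 6.82 in gp130- (n = 15), against 5.69, 5.87 and 6.84 in gp130flox (n = 10), and the single gp130flox value near 6.84 came from preparation 1 at 3 h. The genotypes overlapped in both sets. Over all times the difference was 0.52 ± 0.14 in numbers 6-11 (limma adjusted p = 0.00490), 0.50 in numbers 1-4 (0.290) and 0.50 ± 0.12 with the set as a term (0.00260), each smaller than 1.5-fold. Over all arrays without the set term it was -0.27, with 13 of 28 gp130- and 23 of 33 gp130flox arrays in numbers 6-11. At 6 h it was called with the set as a term, at 0.69 (adjusted p = 0.00745), and was -0.42 over all arrays. With array quality weights over all arrays Fbp1 was instead called lower in gp130-, at -2.10 at 6 h and -2.01 over all times.

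Pcx was higher in gp130- at 1 h within numbers 6-11, and at 6 h as well when the preparation was a block. The arrays gave 6.21, 6.51 and 6.87 in gp130-, against 5.05, 5.85, 5.88 and 6.09 in gp130flox, without overlap, and the difference was 0.81 ± 0.24 (limma adjusted p = 0.0354). At 6 h they gave 6.75 and 6.52 in gp130-, against 5.44, 6.07, 5.98, 5.82 and 6.09 in gp130flox, and with the block the difference was 0.81 ± 0.25 (0.0347), 1 of 6 pairs called among 35, against 7.01% of all pairs. Over all times it was 0.54 ± 0.13 (0.00268), smaller than 1.5-fold. In numbers 1-4, Pcx averaged 5.21 ± 0.39 in gp130- and 5.44 ± 0.61 in gp130flox (SD, n = 15 and 10), so the direction was not shared by the sets. The gp130flox array of preparation 1 at 3 h was again the highest of that set, at 6.70. It also had the highest Pklr value there, 6.79, and its median correlation with the other arrays of numbers 1-4 was 0.954, where every other array of the study had at least 0.962 with its own set.

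Pklr was not called over all arrays, with the set as a term or within a set. In numbers 6-11 its lowest, median and highest log2 signals were 5.21, 6.45 and 6.75 in gp130-, against 5.52, 6.28 and 6.74 in gp130flox, and in numbers 1-4 they were 5.08, 5.61 and 6.54 in gp130-, against 4.92, 5.27 and 6.79 in gp130flox. The genotype differences over all times were 0.01 ± 0.15 in numbers 6-11 (limma adjusted p = 0.969) and -0.08 over all arrays (0.9999). The other Pklr probe that passed the filter correlated with the tested one at r = 0.857 over 61 arrays. It gave -0.05 ± 0.23 over all arrays and no call.

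Irs1 and Irs2, the docking proteins that carry the insulin signal from its receptor, were not called in these fits either, whereas with array quality weights over all arrays both were called over all times, at -0.64 for Irs1 and 0.70 for Irs2. Irs1 averaged 5.80 ± 0.28 in gp130- and 5.61 ± 0.26 in gp130flox in numbers 6-11 (SD), against 4.67 ± 0.17 and 4.74 ± 0.16 in numbers 1-4. Its difference over all times was 0.21 ± 0.12 in numbers 6-11 (SE, limma adjusted p = 0.203). Irs2 differed most at 6 h in numbers 6-11, where the arrays gave 4.70 and 4.94 in gp130-, against 5.68, 6.42, 4.80, 5.18 and 6.02 in gp130flox. The 4.80 of gp130flox preparation 9 lay between the gp130- values, and the difference of -0.80 ± 0.32 missed the threshold (0.109). In numbers 1-4 at 12 h Irs2 was 6.78, 6.64 and 6.18 in gp130-, against 5.84 and 5.82 in gp130flox, a difference of 0.70 (0.157).

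**Figure D3:**
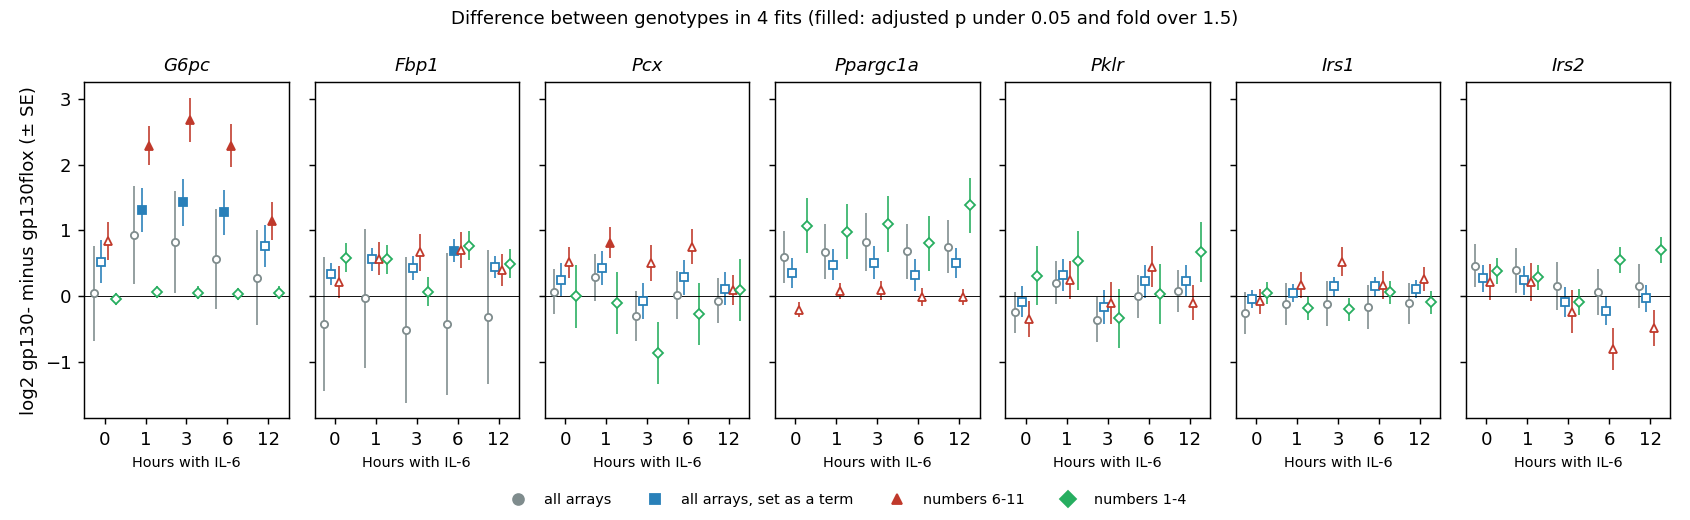
Log2 difference between gp130- and gp130flox (y axis, with SE) at each time with IL-6 (x axis, 0 to 12 h) for the 7 members, one panel each, from 4 fits: all arrays, all arrays with the set of numbers as a term, numbers 6-11 alone and numbers 1-4 alone; filled symbols passed an adjusted p of 0.05 and a fold of 1.5. G6pc reaches 2.68 at 3 h in numbers 6-11 and stays near 0 in numbers 1-4, where Ppargc1a has its largest differences.

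Levels of the members also differed widely between the 2 sets of numbers. Fbp1 was 3.54 higher on the log2 scale in numbers 6-11 than in numbers 1-4 in gp130- and 3.55 higher in gp130flox, 11.7-fold in both, and its ranges did not overlap. G6pc was at least 7.87-fold higher in numbers 6-11 in gp130- and at least 2.28-fold higher in gp130flox, where a bound stands in for arrays not above background (the lowest signal of any detected probe on that array, or the probe's own signal if higher). Irs1 was 1.13 higher in gp130- and 0.87 higher in gp130flox, Pcx 1.22 and 0.48 higher, and Pklr 0.60 and 0.84 higher. The order was turned for the other 2 members. Irs2 was lower in numbers 6-11 by a difference of -1.18 in gp130- and -0.62 in gp130flox, and Ppargc1a was at least 2.48-fold lower in gp130- and at least 1.22-fold lower in gp130flox. The members' median difference between sets was 0.80, against -0.02 over all genes, and 1 of 7 members (Fbp1) had sets that did not overlap, against 9.27% of all genes.

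**Figure D4:**
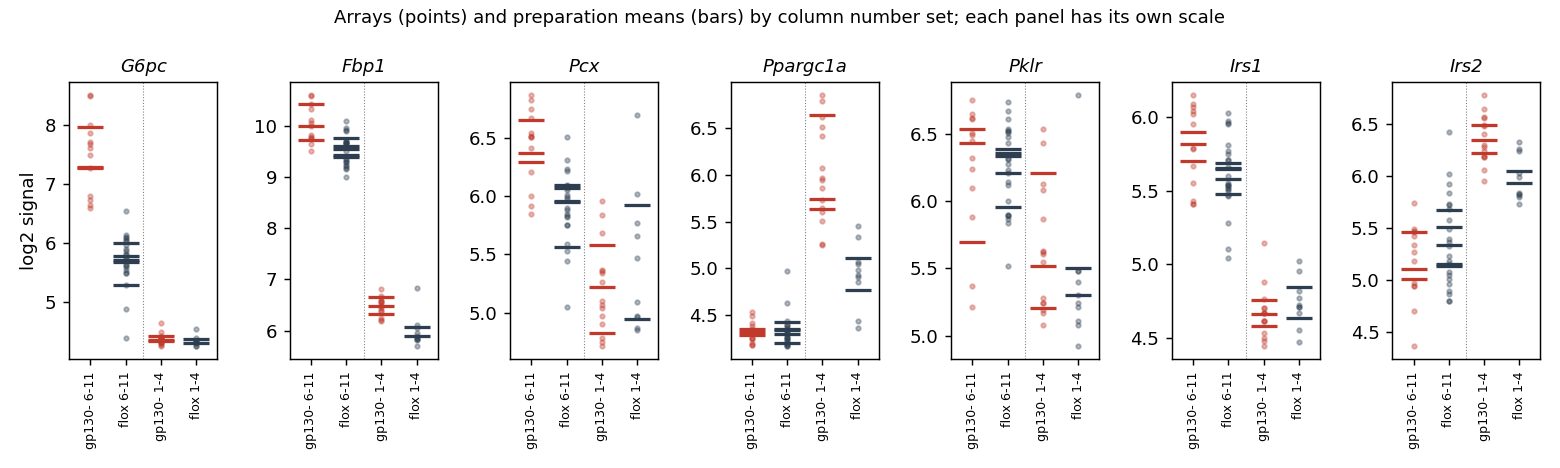
Log2 signal (y axis, with its own scale in each panel) of the 7 members on each array (points), by genotype and set of numbers (x axis), with bars for the preparation means. Fbp1, G6pc and Irs1 sit higher in numbers 6-11, Irs2 and Ppargc1a sit higher in numbers 1-4, and the gp130flox array of preparation 1 at 3 h is the highest point of numbers 1-4 in the Fbp1, Pcx and Pklr panels.

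IL-6 changed none of the 7 members past the threshold in a fit over all arrays. In gp130- 0 of 28 pairs of a member and a time were called, against 0% of all pairs, and in gp130flox 0 of 28 were called, against 0.0555%. In each genotype 0 pairs passed the fold at an unadjusted p under 0.05. With the preparation as a block, 0 of 28 were called in gp130- against 0.0103% of all pairs, and 1, G6pc at 1 h (0.69 ± 0.18), passed the fold at an unadjusted p under 0.05. In gp130flox 0 of 28 were called with the block against 0.652%, 0 at an unadjusted p under 0.05 past the fold. The members' changes with the block ran between -0.36 (Irs2 at 3 h) and 0.69 in gp130- and between -0.49 (G6pc at 3 h) and 0.35 (Pklr at 3 h) in gp130flox. The difference of the changes between genotypes was called for 0 of 28 pairs without the block, against 0% of all pairs, and for 0 of 28 with it, against 0.21% of all pairs, while 3 passed the fold at an unadjusted p under 0.05. For genotype differences at each time with the block, 0 of 35 pairs were called against 1.11% of all, and 6 passed the fold at an unadjusted p under 0.05. The unadjusted counts here have no share of all pairs beside them, because it was not counted.

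The wider pathways were read from lists of gene symbols. Of 15 gluconeogenesis genes tested, 0 were called over the 5 times with all arrays, 4 with the set as a term and 5 in numbers 6-11, each of them higher in gp130-, which is 26.7% with the set term and 33.3% in numbers 6-11, against 4.4% and 7.65% of all genes. Besides G6pc these included Gpt, an alanine aminotransferase that feeds pyruvate to the pathway, at 0.84 ± 0.23 with the set term (limma adjusted p = 0.00671) and 0.90 ± 0.14 in numbers 6-11. Mdh1, the cytosolic malate dehydrogenase, was called in numbers 6-11 (0.63 ± 0.22), as were Slc37a4, the glucose-6-phosphate transporter (1.08 ± 0.17), and Gpd1, a glycerol-3-phosphate dehydrogenase (0.64 ± 0.12), these last chosen after their values were seen. Fbp2, the muscle type of fructose bisphosphatase, was called with the set term (0.83 ± 0.22) and not in numbers 6-11 (0.32 ± 0.12). The median difference of the list was 0.34 in numbers 6-11, against 0.00 over all genes.

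Most tested genes of amino acid breakdown and the urea cycle were higher in gp130- in numbers 6-11. Of 21, 15 were higher and 1 was lower in gp130- in numbers 6-11, 8 were higher and 1 lower with the set as a term, and 1 was higher and 1 lower over all arrays. These are 76.2%, 42.9% and 9.52% of the list, against 7.65%, 4.4% and 1.62% of all genes. Cps1, which starts the urea cycle and is also among the hepatocyte markers, was higher by 1.71 ± 0.13 in numbers 6-11 and had 0.83 ± 0.44 over all arrays (adjusted p = 0.587). Arg1 (0.85 ± 0.13) and Ass1 (0.69 ± 0.19), both higher in numbers 6-11, are on both lists as well, so the 2 lists are not independent. Fah, of tyrosine breakdown, was called in each of these fits, at 1.13 ± 0.11 in numbers 6-11 and 0.83 ± 0.18 over all arrays. Hpd, also of tyrosine breakdown, was higher by 1.45 ± 0.15 in numbers 6-11. Cth, which makes cysteine, was lower by -0.97 ± 0.27 over all arrays and had -0.12 ± 0.14 in numbers 6-11.

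Of 12 glycogen genes, 4 were called in numbers 6-11, 3 with the set term and 1 over all arrays, all higher in gp130-. These are 33.3%, 25.0% and 8.33%, against 7.65%, 4.4% and 1.62% of all genes. Ugp2, which makes UDP-glucose, was called in each fit (1.52 ± 0.14 in numbers 6-11, 0.86 ± 0.21 over all arrays). Gys2, the liver glycogen synthase, was higher by 1.42 ± 0.13 in numbers 6-11, and the glycogen-targeting phosphatase subunits Ppp1r3c and Ppp1r3g by 1.28 ± 0.11 and 1.30 ± 0.24. Of 25 genes of glycolysis and glucose uptake, 5 were higher and 2 lower in numbers 6-11, 1 was higher with the set term and 0 were called over all arrays. These are 28%, 4% and 0%, against 7.65%, 4.4% and 1.62% of all genes. Slc2a2, the glucose transporter GLUT2 of hepatocytes, was higher by 1.72 ± 0.10 in numbers 6-11 and by 1.23 ± 0.13 with the set term. Aldoa, Pdk1 and Khk were higher by 0.68 ± 0.13, 0.71 ± 0.15 and 0.66 ± 0.11 in numbers 6-11, although Khk had -0.34 ± 0.51 over all arrays. Pfkp, a phosphofructokinase, and Pdk4, a pyruvate dehydrogenase kinase, were lower by -0.88 ± 0.13 and -0.63 ± 0.13 in numbers 6-11 and were chosen after their values were seen.

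Insulin signaling genes were called at a share close to that of all genes. Of 28 tested, 1 was higher and 2 were lower in gp130- in numbers 6-11, 2 were lower with the set term and 0 were called over all arrays, which is 10.7%, 7.14% and 0%, against 7.65%, 4.4% and 1.62% of all genes. Grb10, an adaptor that binds the insulin receptor, was lower by -0.68 ± 0.13 in numbers 6-11 and -0.90 ± 0.14 with the set term. Pik3r1, the regulatory subunit of PI3 kinase, was lower by -1.29 ± 0.18 and -0.75 ± 0.18 in the same fits. Insr, the receptor itself, had -0.20 ± 0.15 in numbers 6-11 and was not called over the 5 times. At 3 h Insr was called lower in gp130- with the set as a term (-0.61 ± 0.19, limma adjusted p = 0.0415). The gene called higher in numbers 6-11, chosen after its value was seen, was Mtor, a kinase of growth signaling (0.69 ± 0.12).

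Of 24 regulators of gluconeogenic genes, 3 were lower in gp130- over all arrays, 3 were lower and 1 higher with the set as a term, and 2 were lower and 1 higher in numbers 6-11. These are 12.5%, 16.7% and 12.5%, against 1.62%, 4.4% and 7.65% of all genes. Stat3, the transcription factor that gp130 activates, was lower by -1.14 ± 0.30 over all arrays (limma adjusted p = 0.0217) and by -1.37 ± 0.21 in numbers 6-11. Cebpb, an acute phase and gluconeogenic transcription factor, was lower by -1.09 ± 0.16 over all arrays (3.24e-06) and -0.74 ± 0.10 in numbers 6-11. With the block over all arrays, Cebpb rose in gp130flox by 0.78 ± 0.11 at 3 h (4.28e-06), and its change in gp130- was smaller by a difference of -0.80 ± 0.16 (0.00805). Mlxipl, the glucose-responsive factor ChREBP, was lower by -0.69 ± 0.19 over all arrays and had -0.40 ± 0.11 in numbers 6-11, smaller than 1.5-fold. Lpin1, a coactivator partner of PGC-1α, had 0.43 ± 0.13 in numbers 6-11 and was not called over the 5 times. At 3 h Lpin1 was called higher in gp130-, by 1.08 ± 0.26 in numbers 6-11 (limma adjusted p = 0.00634) and 1.03 ± 0.29 with the block over all arrays (0.0466). The regulator called higher over the 5 times in numbers 6-11, chosen after its value was seen, was Gcgr, the glucagon receptor. Its difference was 1.01 ± 0.19 (limma adjusted p = 0.000166).

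**Figure D5:**
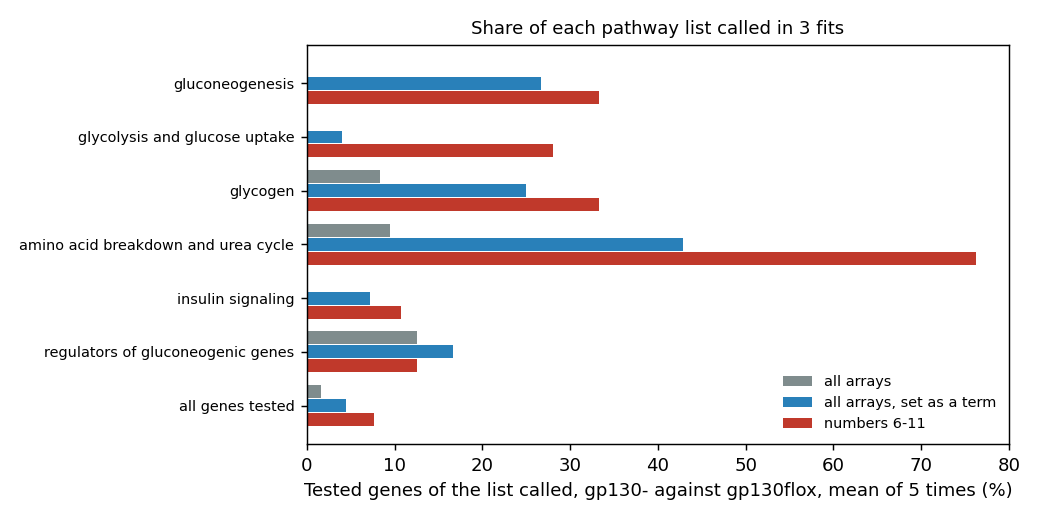
Percent of the tested genes of each pathway list that were called between gp130- and gp130flox over the mean of the 5 times (x axis), for 6 lists and all genes tested (y axis), with a bar for each of 3 fits: all arrays, all arrays with the set of numbers as a term, and numbers 6-11 alone. Amino acid breakdown and the urea cycle reaches 76.2% in numbers 6-11, against 7.65% of all genes, and insulin signaling 10.7%.

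The genes whose values ran most closely with each member were found by Pearson correlation across the 61 arrays after the mean of each preparation was subtracted. The points share preparations and times, so the values are a description. G6pc ran with Rdh9 (r = 0.77), Hsd3b5 (0.76) and Hpd (0.66). Rdh9, a retinol dehydrogenase family gene, averaged 6.78 at 0 h and 7.60 at 3 h in gp130- of numbers 6-11, against 5.66 and 5.42 in gp130flox. Ppargc1a ran with Prss35 (0.57), Flrt3 (0.56) and Rem2 (0.53), Fbp1 with Mmp24 (0.77), Agt (0.73) and Ech1 (0.73), and Pcx with Cherp (0.77), Slco2a1 (0.76) and F12 (0.75). Pklr ran with Myc (0.69), Fn1 (0.69) and Tfr2 (0.68), Irs1 with Tcf19 (0.61), Emc9 (0.60) and Cacna1c (0.60), and Irs2 with Rnpepl1, Inppl1 and Fzr1 (0.76 each).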

How the data were processed

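Hepatocyte RNA from 61 samples was hybridised by the authors to Illumina arrays with 45281 probes. The deposited signal table holds probe intensity without normalization with the detection p-value that GenomeStudio gave it. GenomeStudio 1.6.0 is named in the submitters' processing notes, and the methods state a cubic spline normalization for the authors' processed intensity values, which were used as an alternative. Intensities were corrected by normexp from the detection p-values (neqc, offset 16), quantile normalized and log2 transformed with limma 3.58.1 in R 4.3.3. Of the probes, 34885 name 1 gene, 18 several and 10378 none in the platform annotation. Probes detected (p under 0.05) on at least 5 arrays were kept, and for a gene with several the brightest was tested (Pklr has 2). Between 15257 and 19256 probes were detected per array, and 0 pairs of arrays were identical.

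Group means of 2 genotypes and 5 times were fitted with limma, and p-values were adjusted by Benjamini-Hochberg over all genes; the mean of the 5 times used the preparation as a random block. Both a fold over 1.5 and an adjusted p under 0.05 were needed for a call. The column headings pair arrays across times: deviations from group means correlated in all 114 pairs within a preparation (lowest r 0.276, median 0.856), and 43 of 61 arrays were closest to their own preparation. Pathway genes named are up to 4 per list with the largest called difference in the fits over all arrays (without or with the set or the block), beside 3 neighbours per member. The members, lists and sets of numbers were chosen with earlier results of these data known. Promoters come from RefSeq (GRCm38.p6), where all 9 members matched. The fitting steps were tested on simulated data. No genome was used here.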

Additional observations from a re-analysis of the deposited data

Results flagged for a closer look

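In 70 groups of values of the members, a single array far from the rest of its group was found 3 times, where chance gives about 5% of groups. Ppargc1a was at 4.91 in the gp130flox array of preparation 2 at 3 h, against 4.16 to 4.43 in the other 5 arrays of that time, and at 4.85 in the same preparation at 12 h, against 4.20 to 4.43. Pklr was at 5.30 in the gp130flox array of preparation 2 at 3 h, against 6.23 to 6.79 in the others. That 5.30 was close to the gp130flox median of numbers 1-4 (5.27), whereas the 6.79 came from preparation 1, whose 3 h array stood apart from its set. Preparation 2 belongs to numbers 1-4. The change of G6pc from 0 h differed between gp130- and gp130flox in numbers 6-11 with the preparation as a block, by 1.55 at 1 h, 1.76 at 3 h and 1.70 at 6 h.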

How the results depend on the processing

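Calls were few and depended on which numbers entered the fit. Over all arrays, 0 of 35 member and time pairs were called between genotypes, with or without the replicate block, and 4 were called with the set as a term, 5 in numbers 6-11 alone, 6 there with the replicate block, 2 in numbers 1-4 with the replicate block (also 2 without the array of gp130flox preparation 1 at 3 h) and 12 with array quality weights. Over all times 0 of 7 members were called, and 1 was called with the set as a term, in numbers 1-4, in numbers 6-11, without gp130- preparations 2 and 3 and with no replicate block, and 4 with array weights. The shares of all pairs and of all genes called with array weights were not counted, so the 12 and the 4 have no background beside them. Leaving out each of the 13 preparations gave 0 to 1, the 1 being Ppargc1a without gp130- preparation 6, 7 or 9. The difference of IL-6 changes was called for 3 pairs in numbers 6-11 with the replicate block, and the block changed no other count of calls for IL-6. Array weights turned G6pc over all arrays to -0.68, -0.58, -0.49, -0.72 and -0.63 at 0, 1, 3, 6 and 12 h and -0.61 over all times, and Pcx to -0.42 at 1 h and -0.45 over all times, and moved Fbp1 to -2.10 at 6 h and -2.01 over all times, Irs1 to -0.64 and Irs2 to 0.70, where Fbp1, Irs1, Irs2 and Ppargc1a (1.26) were the 4 called; the cause was not tested. In numbers 1-4 G6pc at 0 h was fitted at -0.039, which has no direction because no array of either genotype was above background there, and Pcx turned to -0.11 at 1 h and -0.23 over all times. Fbp1 turned from negative at 6 h to 0.50 without gp130- preparations 2 and 3, 0.69 with the set term, 0.77 in numbers 1-4 with or without the block, and 0.70 in numbers 6-11 (0.79 with the block), and over all times to 0.59, 0.50, 0.50 and 0.52 for the same selections without the block. Without gp130- preparations 2 and 3, Pklr, Irs1 and Irs2 over all times became 0.23, 0.19 and -0.070; with the set term Pklr and Irs1 became 0.086 and 0.093; in numbers 1-4 Pklr became 0.24; and in numbers 6-11 Pklr, Irs1, Irs2 and Ppargc1a became 0.012, 0.21, -0.20 and -0.0088, the last with 2 of 36 arrays above background. Leaving out each preparation moved G6pc between -0.30 and 0.31 at 0 h and between -0.086 and 0.56 at 12 h, and over all times Fbp1 between -0.71 and 0.12, Pcx between -0.14 and 0.23, Pklr between -0.20 and 0.074, and Irs1 between -0.26 and 0.012. Signals near background limit G6pc in numbers 1-4 and Ppargc1a in numbers 6-11. Without the array of gp130flox preparation 1 at 3 h, Fbp1 at 6 h was called in numbers 1-4 with the block (adjusted p = 0.0384). Fits within a set with the block, fits without that array, permutations over preparations and 2 motifs were chosen after seeing the data.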
